A study of Mus musculus with 48 samples.

Results

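The inner root sheath is the sleeve of hardened cells that surrounds and moulds the growing hair shaft. Its intermediate filaments are built from type I keratins, here Krt25, Krt26, Krt27 and Krt28, that pair with type II keratins, here Krt71, Krt72, Krt73 and Krt74. Trichohyalin (Tchh) is the protein of the granules in which these filaments become embedded. The genes described were taken by name, and all 9 were found among the 46983 genes of each of the 2 deposited expression tables. Whole skin of C57BL/6 mice had been profiled by RNA-seq in the chin, ventral and dorsal domains at 6 stages of the hair cycle, which gave 43 libraries in 18 groups, 11 groups of 2 and 7 groups of 3. The stages were a competent telogen before growth, 3 stages of anagen (early, mid and late), then catagen, and a refractory telogen after it. A second table held rostral ear skin in telogen (2 libraries), the cartilage/muscle complex of the ear (3 libraries) and again the 2 dorsal competent telogen libraries, so that 48 libraries were distinct. No transgene, treatment or age is named in the labels of these libraries. The labels do not say that libraries of a group came from separate animals, so p-values measure the spread between libraries, which may be technical.

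Hair follicles pass through growth (anagen), regression (catagen) and rest (telogen). In anagen, cells of the hair matrix divide and then differentiate in concentric layers. Outermost in the inner root sheath is the Henle layer, followed by the Huxley layer and by the cuticle, which interlocks with the cuticle of the hair shaft. Krt25, Krt27, Krt28 and Krt71 are known from all layers of the sheath, Krt26, Krt72 and Krt73 from its cuticle, and Krt74 from the Huxley layer. Trichohyalin is deiminated by peptidylarginine deiminases and crosslinked by transglutaminases. The sheath is a structure of the growing follicle, and a resting follicle holds a club hair without it.

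Genes for the type I keratins lie together on the minus strand of chromosome 11 (Krt25 at chr11:99315516-99322951 to Krt28 at chr11:99364872-99374903, GRCm38, GENCODE vM21 annotation). Those for the type II keratins lie on the minus strand of chromosome 15 (Krt71 at chr15:101733949-101743109 to Krt73 at chr15:101793308-101802346). Tchh lies on the plus strand of chromosome 3 (chr3:93442330-93449077) and has 2 exons, against 7 to 9 in the keratin genes. Krt74 (chr15:101754259-101763504, between Krt71 and Krt72) is annotated as a transcribed unitary pseudogene in the mouse, and the other 8 genes as protein coding. Because the genes of a cluster are alike, the share of 50-base stretches of each gene's transcripts that also occur in transcripts of other genes was counted. It was 10.9% for Krt25 and 11.1% for Krt27, the most alike, and at most 2.43% for each of the others. Krt25 shared such stretches with Krt27, Krt28 and the epidermal keratin Krt15, and Krt27 with Krt25 and Krt28. Levels of Krt25 and Krt27 therefore rest in part on how reads common to these genes were divided among them. Krt74, at 2.43%, shares such stretches with Krt71 and Krt73, so the same may hold for its level.

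Sequence before the start of transcription was available from RefSeq (GRCm38.p6) for 8 of the 9 genes, all but Krt74. Windows of 250 bases before the start are printed for Krt25 and Krt27 (the type I genes with a GATA motif) and for Krt71 and Krt73 (the type II genes with one), since these pairs from the 2 clusters are compared across stages in the results. Capitals mark the letters TATAAA, known as the box near many starts of transcription. They also mark AGATAA, the motif of factors such as Gata3 of the inner root sheath, and TAATTA, the motif of homeodomain factors. All were searched on both strands. The windows were chr11:99322952-99323201, chr11:99351119-99351368, chr15:101743098-101743347 and chr15:101802361-101802610, all read on the minus strand and written 5′ to 3′.
Krt25: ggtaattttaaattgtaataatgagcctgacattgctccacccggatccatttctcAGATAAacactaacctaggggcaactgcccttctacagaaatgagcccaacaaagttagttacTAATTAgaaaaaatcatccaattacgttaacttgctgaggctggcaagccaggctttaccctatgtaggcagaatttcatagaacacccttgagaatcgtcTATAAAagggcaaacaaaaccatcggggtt
Krt27: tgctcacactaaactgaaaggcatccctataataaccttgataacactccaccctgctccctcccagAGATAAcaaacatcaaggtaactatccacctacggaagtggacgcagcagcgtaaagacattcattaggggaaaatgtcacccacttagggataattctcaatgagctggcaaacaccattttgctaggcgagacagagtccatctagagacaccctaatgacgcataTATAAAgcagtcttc
Krt71: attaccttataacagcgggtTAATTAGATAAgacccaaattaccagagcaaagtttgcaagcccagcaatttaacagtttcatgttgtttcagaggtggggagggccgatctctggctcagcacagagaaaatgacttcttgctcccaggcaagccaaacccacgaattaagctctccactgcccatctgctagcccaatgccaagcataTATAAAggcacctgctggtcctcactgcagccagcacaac
Krt73: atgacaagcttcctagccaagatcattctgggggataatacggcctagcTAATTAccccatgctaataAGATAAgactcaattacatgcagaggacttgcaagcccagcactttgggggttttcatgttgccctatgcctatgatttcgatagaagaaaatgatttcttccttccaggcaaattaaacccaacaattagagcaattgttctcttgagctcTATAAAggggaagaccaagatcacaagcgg
The TATAAA letters stood 30 to 25 bases before the RefSeq start in Krt25 and Krt73, 15 to 10 bases in Krt27 and 40 to 35 bases in Krt71. GENCODE places the start elsewhere for Krt27 (chr11:99351104), Krt71 (chr15:101743109) and Krt73 (chr15:101802346). Distances in these genes therefore depend on the annotation used. AGATAA stood between 225 and 177 bases before the start in these 4 genes, and the last base of TAATTA was the first of AGATAA in Krt71. Over the 8 genes, TATAAA occurred at any position in 7 windows, against 12.4% of all 32851 RefSeq windows of this length. Its only match in Krt72 lay on the opposite strand, 203 to 198 bases before the start, and so not near it. AGATAA occurred in 5 (Krt25, Krt27, Krt71, Krt73 and Tchh) against 9.99%, and TAATTA in 4 (Krt25, Krt28, Krt71 and Krt73) against 4.84%. CTTTGA, the core of the LEF/TCF motif, occurred in 2 (Krt28 and Tchh) against 13.8%. These matches describe letters and no binding was measured.

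The deposited values are FPKM, read fragments scaled to transcript length and to the library's total, and so allow levels of different genes to be compared. Depth was estimated from the steps between low FPKM values and ran from 6676623 to 30895554 fragments per library (median 12814948), which put Krt71 at an estimated 47515 to 405573 fragments per skin library and Krt74 at 13 to 449. The limit on precision was thus the spread between libraries for all of the genes but Krt74. Replicate libraries varied 1.31 to 27.2 times as much as counting alone would give (median 2.93 over 36 pairs). The 2 dorsal competent telogen libraries formed the pair at 1.31, and the 2 ventral refractory telogen libraries the pair at 27.2. Skin groups share an estimate of the spread in the fits below. For comparisons with ventral refractory telogen, the SE and p-values therefore do not measure the spread of that pair itself. Differences were tested with limma on log2(FPKM + 1) over the 21257 genes that reached 0.5 FPKM in 2 or more skin libraries, with Benjamini-Hochberg adjustment over all of them and a threshold of 0.05. A fold change on this scale understates the change of low genes such as Krt74. In whole skin, fewer inner root sheath cells and less RNA per cell cannot be told apart.

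Krt71 was the highest of the genes in 40 of the 43 skin libraries, with a median of 7532 FPKM over the 43 libraries (1743 to 12041). Krt27 followed with a median of 5208 FPKM (1411 to 7403), then Krt25 with 2080 (343 to 3794), Tchh with 1697 (302 to 2856) and Krt28 with 1134 (112 to 2464). The cuticle keratins were lower, with medians of 959 FPKM for Krt72, 743 for Krt73 and 564 for Krt26. Krt74 was at 3.84 FPKM (0.93 to 11.6). Together the genes summed to between 4649 and 28828 FPKM per skin library. Krt71 made up a median of 37.7% of that sum and Krt27 24.8%, against 10.1% for Krt25, 8.27% for Tchh, 6.23% for Krt28, 4.42% for Krt72, 4.1% for Krt73, 2.4% for Krt26 and 0.0209% for Krt74. The share of Krt71 ranged from 15.5% to 48.8% and that of Krt27 from 17.4% to 41.1%, so the composition was not the same in all skin groups. Highest and lowest group means differed 4.67-fold for Krt27, 6.71-fold for Krt71 and 19.7-fold for Krt28, which had the widest range.

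**Figure D1:**
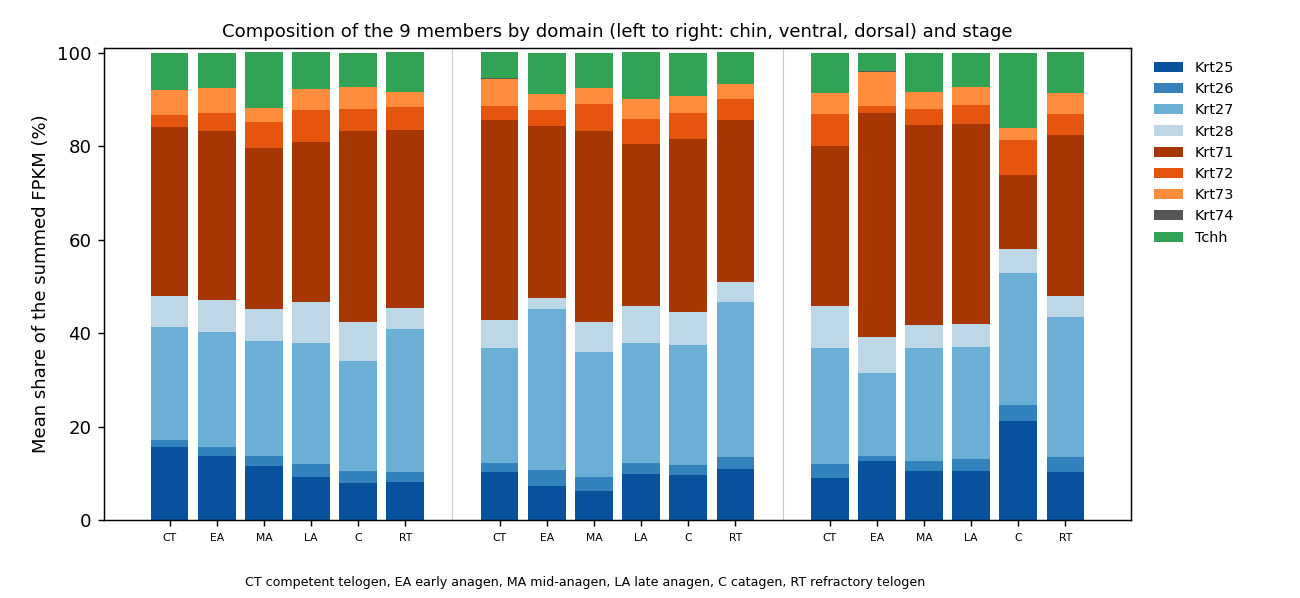
Each stacked bar gives the mean share, in percent, of the 9 genes in their summed FPKM for 1 of the 18 skin groups, ordered by domain and stage. Krt71 and Krt27 together fill most of each bar, except in dorsal catagen, where Krt71 falls to 15.9% and Krt25 and Tchh reach 21.2% and 16.0%.

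A resting follicle lacks the sheath, so the label of each stage was set beside these genes. All 14 skin libraries labelled telogen held them at a high level, with sums from 6000 to 24370 FPKM (median 12116), against 4649 to 28296 (median 22951) in the 22 libraries labelled anagen. The 7 libraries labelled catagen had sums from 17271 to 28828 FPKM (median 27030). The lowest of the 14 telogen libraries was 41.3-fold above the higher of the ear skin libraries, which summed to 145 and 135 FPKM. Telogen labels therefore did not mark skin without inner root sheath transcripts in the chin, ventral or dorsal domain. The 12 measured of 13 listed keratins of the hair shaft (Krt85 was not found) summed to 2201 to 10309 FPKM in the same 14 telogen libraries. A list of 8 genes of dividing cells (Mki67, Top2a, Cdk1 and others) summed to 310 to 407 FPKM in chin and ventral competent telogen. It summed to 171 and 164 FPKM in dorsal competent telogen and to 44.0 to 63.1 FPKM in refractory telogen of all 3 domains. Libraries of mid- and late anagen had 154 to 278 FPKM, below chin and ventral competent telogen. Those of catagen had 242 to 397 FPKM. Within refractory telogen the sheath genes ranged from 6000 to 19575 FPKM while the dividing-cell genes were low throughout.

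Besides the telogen levels above, groups labelled dorsal competent telogen and ventral early anagen stood apart from their labels in these genes. The 2 dorsal competent telogen libraries had sums of 24370 and 24032 FPKM, as high as the 24566 and 23213 FPKM of chin late anagen. Over the moderately expressed genes used to compare libraries, each of these 2 differed from each chin late anagen library by 1.95 to 2.9 times the counting variance, less than the chin late anagen libraries differed from each other (3.48). The 2 dorsal competent telogen libraries differed from each other by 1.31, less than from either chin late anagen library. The 3 ventral early anagen libraries had the lowest sums of all 43, at 4649, 4893 and 4998 FPKM, and the dividing-cell genes in them summed to 31.2 to 42.8 FPKM, against 284 to 470 in early anagen of the other domains. Their epidermal keratins (Krt1, Krt5, Krt10, Krt14, Krt15) summed to 14290 to 15146 FPKM, the highest of the skin libraries. Results that use these libraries name them by their labels and rest on them where only they enter a comparison. The part that stage, dissection or other cell types played in these levels was not tested.

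**Figure D2:**
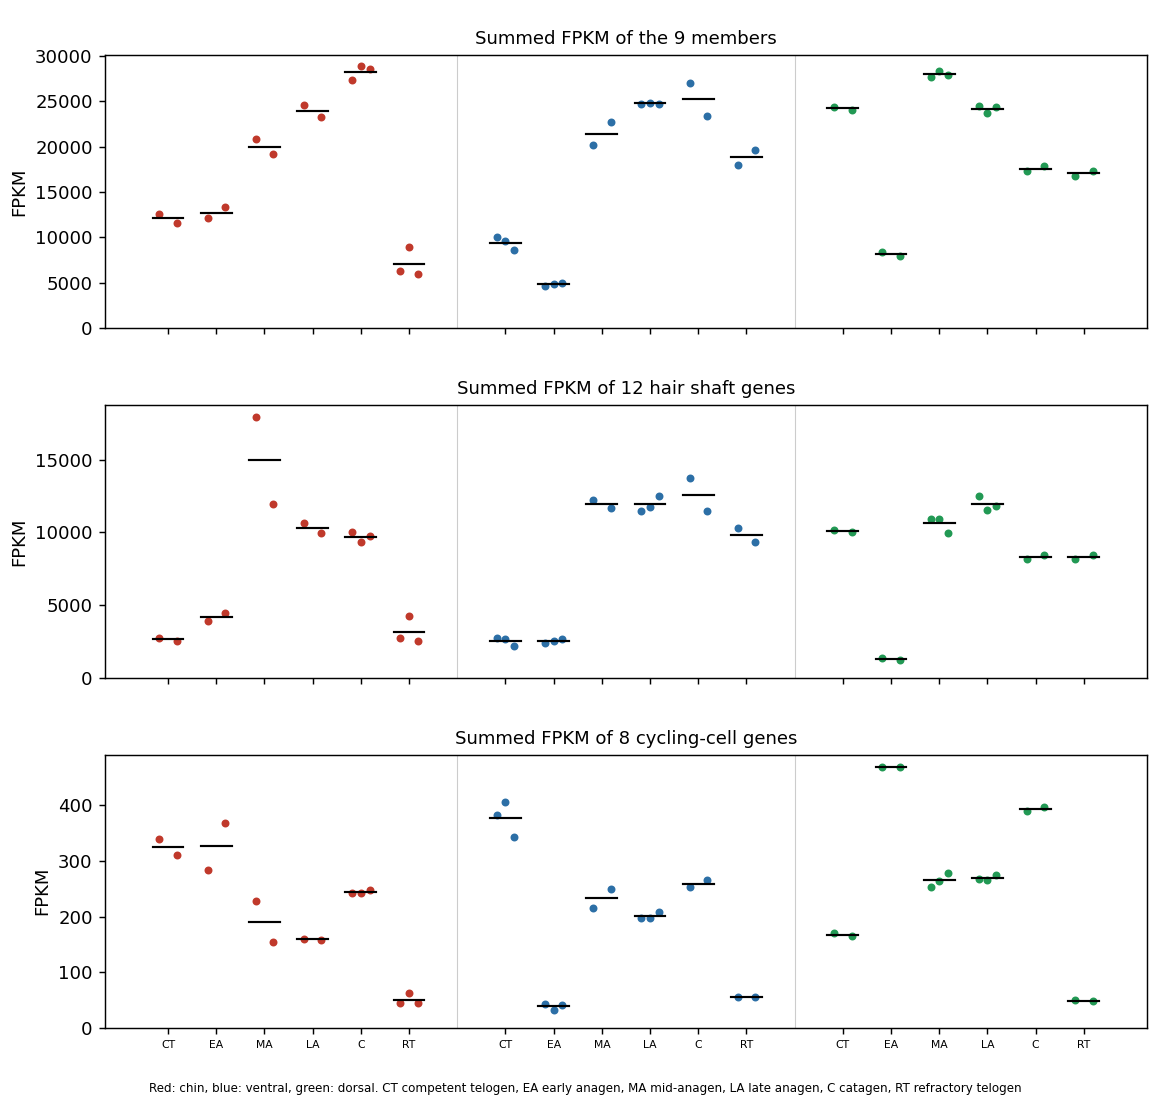
Summed FPKM per library (points) and group mean (bars) are plotted for the 9 genes, the hair shaft keratins and the genes of dividing cells, by domain and stage. The sheath genes stay at 4649 FPKM or more in each skin library, and the dividing-cell genes are lowest in ventral early anagen and in refractory telogen of the 3 domains.

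All 9 genes differed among stages in each domain in limma F-tests, against 66.2% of all genes tested in the chin, 70.2% in the ventral and 68.5% in the dorsal domain. So many genes differed among stages that the count alone does not set these genes apart, and their direction and size are given by domain.

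In the chin domain most of the genes had their highest levels between mid-anagen and catagen and their lowest in refractory telogen. Krt71, the main type II keratin, was at 4336 and 4426 FPKM in competent telogen, 4299 and 4963 in early anagen, 7532 and 6271 in mid-anagen, 7981 and 8335 in late anagen, 11949, 11163 and 11405 in catagen, and 2471, 3233 and 2370 in refractory telogen. Competent telogen and early anagen overlapped, the 3 catagen libraries lay above all others of the chin, and the 3 refractory telogen libraries below all others. Krt72 of the sheath cuticle was at 313 and 309 FPKM in competent telogen, 475 and 491 in early anagen, 1164 and 1033 in mid-anagen and 1737 and 1584 in late anagen, with no overlap between successive stages. It was at 1208, 1460 and 1366 FPKM in catagen and at 286, 533 and 264 in refractory telogen, where library 2 was high for each of the 9 genes.

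From chin competent telogen to early anagen, 0 of the 9 genes passed the limma test (1 at an unadjusted p under 0.05), against 1.26% of all genes that rose and 0.875% that fell. From early to mid-anagen 6 rose and 0 fell, against 3.66% and 14.5% of all genes, and the largest changes were of Tchh (log2 difference 1.29 ± 0.19, SE, adjusted p = 1.40e-05 by limma) and Krt72 (1.18 ± 0.17). This count rested on single libraries. Without early anagen library 1, Krt27 was at 0.52, Krt71 at 0.47 and Krt28 at 0.63. Without mid-anagen library 1, Krt27 was at 0.58, Krt71 at 0.44 and Krt28 at 0.52. Krt25 (0.40 ± 0.14) was at 0.26 without mid-anagen library 2. From mid- to late anagen 3 rose (Krt28, Krt72 and Krt73) and 0 fell, against 7.43% and 12.3% of all genes. None of these 3 passed without mid-anagen library 2, and 1 passed without either of the late anagen libraries. From late anagen to catagen Krt71 rose by 0.50 ± 0.12 and Krt74 by 0.84 ± 0.25, against 8.94% of all genes that rose and 4.19% that fell, but without late anagen library 1 neither passed (0.46 and 0.80), and Krt74 failed also without late anagen library 2 or catagen library 1 or 2.

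Between chin catagen and refractory telogen all 9 genes fell, against 17.5% of all genes that fell and 30.5% that rose. The log2 differences ran from -2.87 ± 0.17 for Krt28 to -1.30 ± 0.22 for Krt74, with a median of -1.99 against 0.09 over all genes. Krt28 was at 2150, 2464 and 2358 FPKM in catagen and 258, 528 and 233 in refractory telogen, with no overlap. Genes of skeletal muscle (Acta1, Ckm, Myh4, Tnnt3) summed to 6676 to 10354 FPKM in these refractory telogen libraries and to 1683 to 1737 FPKM in chin catagen. Refractory telogen library 2 had the least muscle RNA and the most of the sheath genes. Library 1 had more of both (10354 and 6366 FPKM) than library 3 (9562 and 6000 FPKM). The part of muscle RNA in this fall was not tested. Against refractory telogen, 7 were higher and 0 lower in chin competent telogen, against 18.4% and 17.8% of all genes. Krt25 differed most (1.73 ± 0.13), from 506, 777 and 472 FPKM to 2019 and 1779. Tchh (0.69) was at 0.42 without competent telogen library 1. The count was 4 without competent telogen library 1 and 5 without refractory telogen library 1 or 3, Krt27, Krt74 and Tchh being those that failed.

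**Figure D3:**
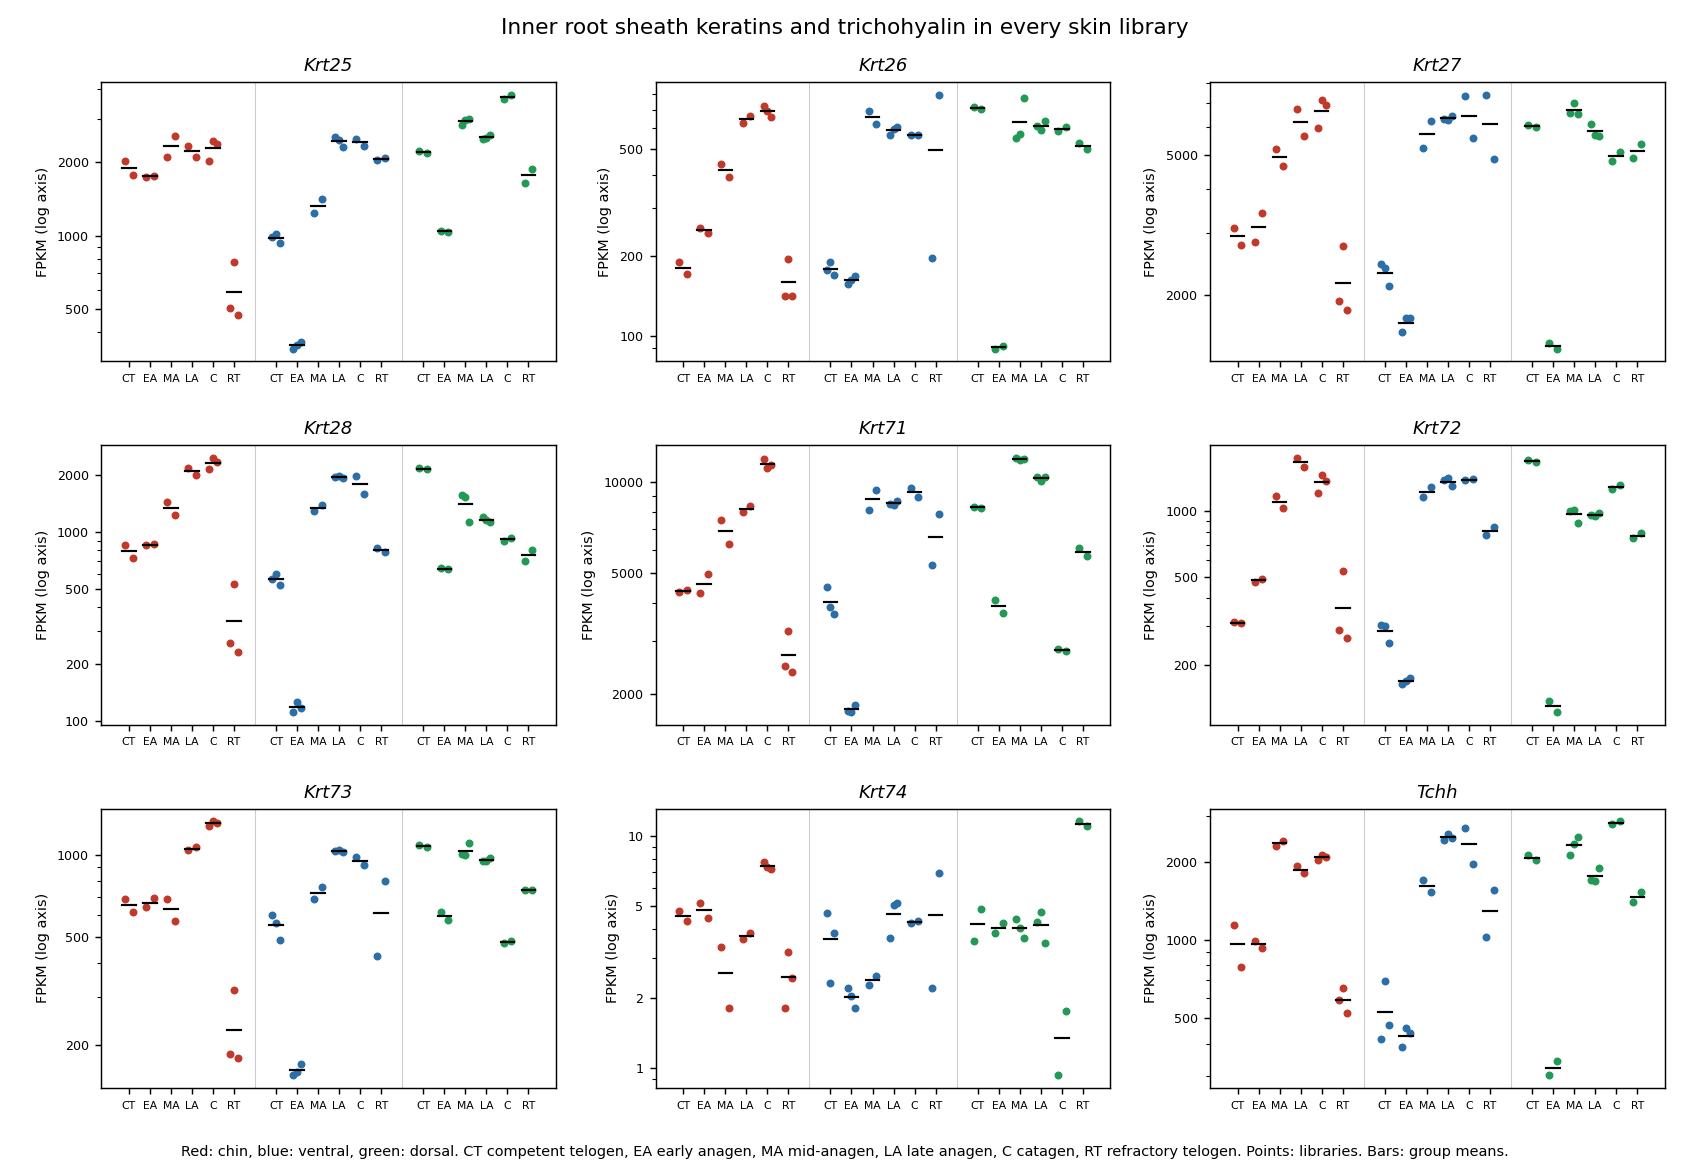
Each panel shows 1 gene, with FPKM on a log axis for each skin library (points) and group means (bars), by domain (red chin, blue ventral, green dorsal) and stage. Most genes are low in ventral early anagen, dorsal early anagen and chin refractory telogen, while in dorsal catagen Krt71, Krt73 and Krt74 are low and Krt25 and Tchh are at their highest means.

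In the ventral domain the genes had their lowest means in the libraries labelled early anagen. All but Krt74 had higher means from mid-anagen to catagen than in competent telogen. Means of Krt25, Krt27 and Krt74 were higher in refractory telogen (2057, 6131 and 4.6 FPKM) than in mid-anagen (1327, 5724 and 2.39). Those of the other genes were lower. Krt28 was at 566, 600 and 527 FPKM in competent telogen, 112, 126 and 117 in early anagen, 1296 and 1392 in mid-anagen, 1954, 1988 and 1922 in late anagen, 1989 and 1581 in catagen and 779 and 821 in refractory telogen. Late anagen and catagen overlapped and no other successive stages did. Krt25, a type I keratin found in all sheath layers, was at 343, 356 and 366 FPKM in early anagen, 1239 and 1415 in mid-anagen and 2541, 2471 and 2311 in late anagen, again with no overlap.

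From ventral competent telogen to early anagen 7 genes fell and 0 rose, against 29.3% and 13.2% of all genes. Krt28 fell by 2.25 ± 0.17, Krt73 by 1.76 ± 0.16 and Krt25 by 1.46 ± 0.11 on the log2 scale, whereas Krt26 (-0.14 ± 0.24) and Tchh (-0.26 ± 0.15) did not pass. Krt27 (-0.47 ± 0.14) was at -0.23 and lost its call when values were scaled by medians of ratios, as did Krt74 (-0.39). The call of Krt74 (-0.58) was lost without competent telogen library 1 (-0.41) or 3 (-0.53) and without early anagen library 1 (-0.62), 2 (-0.58) or 3 (-0.53). From early to mid-anagen 8 genes rose and 0 fell, all but Krt74, against 16.8% and 25.6% of all genes. These were the largest rises of the ventral domain, led by Krt28 (3.5 ± 0.19, adjusted p = 2.20e-14 by limma), Krt72 (2.84 ± 0.16) and Krt71 (2.30 ± 0.12), with a median of 2.02 against -0.09 over all genes. Both comparisons rest on the 3 libraries labelled ventral early anagen. From mid- to late anagen 5 rose and 0 fell, against 12.6% and 11.6% of all genes. Krt25 rose by 0.88 ± 0.13 and kept its call when each library of either group was left out in turn. The count was 1 without mid-anagen library 2, 2 without mid-anagen library 1 or late anagen library 2 or 3 and 3 without late anagen library 1, and Krt28, Krt73, Krt74 and Tchh lost their calls in at least 1 of these fits.

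From ventral late anagen to catagen 0 of the 9 genes passed (0 also at an unadjusted p under 0.05), against 2.83% of all genes that rose and 3.1% that fell. All log2 differences lay between -0.14 and 0.12. Catagen library 1 carries an ear location among its labels although its title names ventral catagen. It had 9594 FPKM of Krt71 against 8981 in library 2, and 59.9 and 57.7 in ear skin. From catagen to refractory telogen 5 fell and 0 rose, against 18.8% and 14.9% of all genes, and the largest fall was that of Krt28 (-1.15 ± 0.21). Without refractory telogen library 2, Krt71 (-0.52 ± 0.13) and Krt73 (-0.70 ± 0.19) no longer passed, both at -0.24, and Tchh (-0.86 ± 0.19) was at -0.56. Without library 1 Krt71 was at -0.80 and Krt73 at -1.16. The refractory telogen libraries 1 and 2 differed widely in single genes, at 799 and 197 FPKM of Krt26, 802 and 423 of Krt73, 4858 and 7403 of Krt27 and 6.98 and 2.21 of Krt74, while Krt25 (2080 and 2034 FPKM) and Krt28 (779 and 821) were close. From refractory to competent telogen 7 fell and 0 rose, against 8.12% and 34.5% of all genes. Krt72 differed by -1.51 ± 0.16 and Krt27 by -1.37 ± 0.15. Krt71 (-0.69 ± 0.12) was at -0.41 without refractory telogen library 1. Krt26 (-1.15 ± 0.27) was at -0.14 without refractory telogen library 1 and at -2.16 without library 2, and the call of Krt28 (-0.51) failed without refractory telogen library 1 (-0.54) or 2 (-0.47) or competent telogen library 1 (-0.51) or 3 (-0.46).

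The dorsal domain had in early anagen the lowest values of all 43 libraries for Krt26, Krt27, Krt72 and Tchh. In catagen Krt71, Krt73 and Krt74 were low there. Krt72 was at 1700 and 1656 FPKM in the libraries labelled competent telogen, 137 and 122 in early anagen, 1003, 1007 and 876 in mid-anagen, 959, 942 and 972 in late anagen, 1314 and 1261 in catagen and 791 and 751 in refractory telogen. Only mid- and late anagen overlapped. Tchh was at 302 and 344 FPKM in early anagen, 2113, 2340 and 2487 in mid-anagen, 1697, 1684 and 1891 in late anagen, 2856 and 2779 in catagen and 1535 and 1403 in refractory telogen, so that catagen lay above all other dorsal libraries.

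From dorsal competent telogen to early anagen 8 genes fell and 0 rose, all but Krt74, against 8.24% and 35.2% of all genes. The falls ran from -0.86 ± 0.19 for Krt73 to -3.69 ± 0.17 for Krt72, and they rest on the 2 libraries labelled dorsal competent telogen. From early to mid-anagen 8 rose and 0 fell, against 9.09% and 30.1% of all genes. Krt72 (2.88 ± 0.16), Tchh (2.84 ± 0.17), Krt26 (2.76 ± 0.27) and Krt27 (2.22 ± 0.15) rose more than 2 log2 units, Krt71 by 1.61 ± 0.12, Krt25 by 1.5 ± 0.13, Krt28 by 1.12 ± 0.19 and Krt73 by 0.80 ± 0.18. Muscle genes summed to 3275 and 3501 FPKM in dorsal early anagen and 825 to 854 in mid-anagen, and their part in these rises was not tested. The cuticle keratins did not move alike, since Krt26 and Krt72 had differences above 2.7 and Krt73 the smallest of the 8. From mid- to late anagen 0 passed (1 at an unadjusted p under 0.05), against 1.15% of all genes that rose and 1.53% that fell. From refractory to competent telogen 4 were higher and 1 lower in competent telogen, against 11.3% and 10.8% of all genes, with Krt28 (1.53 ± 0.21) and Krt72 (1.12 ± 0.17) higher and Krt74 (-1.26 ± 0.27) lower. Without competent telogen library 1 or refractory telogen library 1 the count was 3, since Krt71 and Krt73 failed, and Krt73 failed also without either of the other 2 libraries.

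In dorsal catagen single keratins moved in opposite directions, Krt71, Krt73 and Krt74 being lower and Krt25 and Krt72 higher than in late anagen. Krt71 was at 10427, 10123 and 10438 FPKM in late anagen, 2764 and 2819 in catagen and 5703 and 6055 in refractory telogen. Krt73 was at 952, 948 and 974 FPKM, then 483 and 475, then 744 and 743. Both keratins were lower in each catagen library than in any library of the stages before and after it. Krt25 moved the other way, from 2503, 2505 and 2588 FPKM to 3794 and 3649 and then to 1884 and 1651, the catagen libraries being the highest of all 43 for this gene. From late anagen to catagen 3 genes fell, against 18.7% of all genes, Krt71 by 1.89 ± 0.12 (adjusted p = 8.23e-13 by limma), Krt74 by 1.15 ± 0.25 and Krt73 by 1.00 ± 0.18 on the log2 scale. Also 3 rose, against 20% of all genes, Tchh by 0.68 ± 0.17, Krt25 by 0.56 ± 0.13 and Krt72 by 0.43 ± 0.16, the last losing its call without any 1 of the 5 libraries (0.40 to 0.46). From catagen to refractory telogen the same 6 genes passed in the opposite direction. Krt74 (2.42 ± 0.27), Krt71 (1.07 ± 0.13) and Krt73 (0.63 ± 0.19) were higher, against 19.1% of all genes, and Krt25 (-1.08 ± 0.14), Tchh (-0.94 ± 0.19) and Krt72 (-0.74 ± 0.17) lower, against 24.5%. Krt26, Krt27 and Krt28 passed in neither comparison.

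Since type I and type II keratins assemble in equal amounts, the ratio of the summed FPKM of Krt25 to Krt28 over that of Krt71 to Krt74 was formed in each library. Over the 43 skin libraries its median was 0.976, and it exceeded 1 in 21 libraries. The 2 dorsal catagen libraries had 2.28 and 2.18, above each other skin library, with a type I sum of 10181 ± 346 FPKM (SD, n = 2) against a type II sum of 4560 ± 5.25. Elsewhere the ratio lay between 0.667, in a library of dorsal early anagen, and 1.6, in ventral refractory telogen library 2, whose replicate was at 0.897. Chin and ventral catagen had means of 0.846 ± 0.0848 (n = 3) and 0.963 ± 0.1 (n = 2). The shift was mostly in Krt71, which held 15.9% of the summed FPKM in dorsal catagen against 42.8% in dorsal late anagen, whereas Krt25 held 21.2% against 10.5% and Tchh 16.0% against 7.28%. Keratins of the companion layer and outer root sheath (Krt75, Krt6a, Krt6b, Krt16, Krt17) summed to 1422 and 1441 FPKM in dorsal catagen, the lowest of the skin libraries, against 4683 to 5010 in dorsal late anagen, and the dividing-cell genes to 389 and 397 against 266 to 276. Muscle genes summed to 1284 and 1336 FPKM against 228 to 247, and the epidermal keratins to 2548 and 2588 FPKM, the lowest of the skin libraries, against 5006 to 5115. Most of the companion layer and outer root sheath sum in dorsal catagen was Krt17 (mean 1240 FPKM). Krt75 was not at its lowest there, with a mean of 98.3 FPKM against 88.7 in ventral competent telogen. The part of these cell types in the ratio was not tested.

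**Figure D4:**
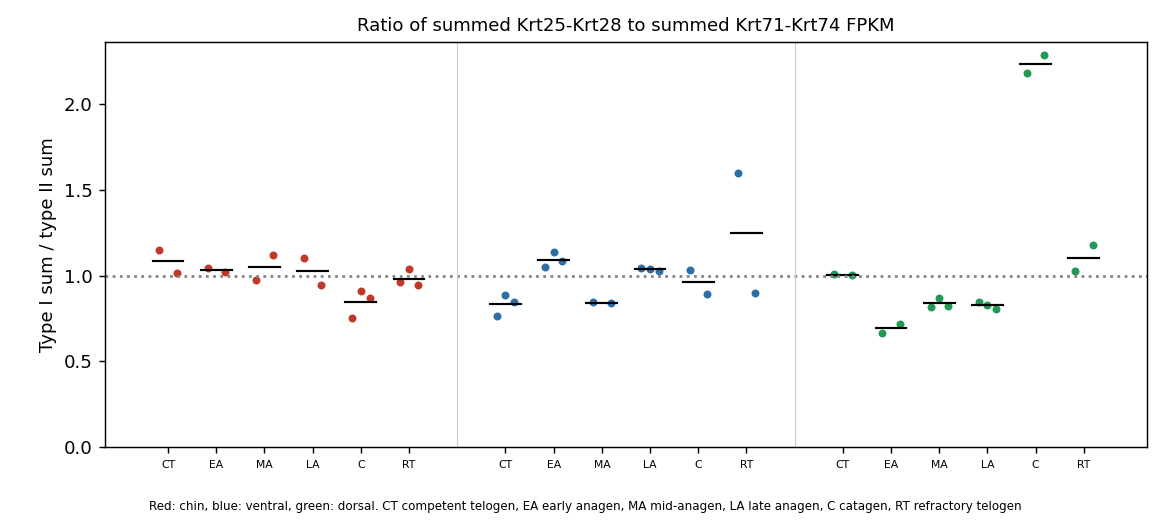
The ratio of the summed type I (Krt25 to Krt28) to the summed type II (Krt71 to Krt74) FPKM is plotted for each skin library (points) with group means (bars), and the dotted line marks a ratio of 1. Only the dorsal catagen libraries, at 2.28 and 2.18, lie above 2.

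Domains were then compared within stages. At competent telogen 8 of the 9 genes differed among domains in the limma F-test, against 54% of all genes tested. Dorsal was above chin for 7 genes (9.29% of all genes) and above ventral for 8 (9.89%), by up to 2.43 ± 0.17 and 2.57 ± 0.16 for Krt72, in comparisons that rest on the libraries labelled dorsal competent telogen. Between the other 2 domains, which do not use those libraries, ventral was lower for 2 genes (7.44% of all genes), Krt25 (-0.96 ± 0.13) and Tchh (-0.88 ± 0.17). Krt25 was at 983, 1018 and 929 FPKM in ventral and 2019 and 1779 in chin competent telogen, with no overlap.

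At early anagen all 9 differed among domains (51.6% of all genes). Dorsal was below chin for 5 genes (10.3%), namely Krt72 (-1.89 ± 0.17), Tchh (-1.58 ± 0.19), Krt26 (-1.44 ± 0.30), Krt27 (-1.11 ± 0.17) and Krt25 (-0.75 ± 0.14). Krt28, Krt71 and Krt73 did not pass there, with values of 641, 3904 and 595 FPKM in dorsal and 856, 4631 and 667 in chin. Muscle genes summed to 3275 and 3501 FPKM in dorsal and 187 and 529 in chin early anagen, and their part in this difference was not tested. The libraries labelled ventral early anagen were below chin for 8 genes (19.8%), and Krt28 differed most (-2.85 ± 0.19). Dorsal was above them for 5 genes (27.7%) and below them for Krt26 (14% of all genes), at 89.7 and 92.1 FPKM against 156, 162 and 168, a call lost without dorsal library 1 (-0.81) or 2 (-0.84), and that of Krt74 (0.73) was lost without dorsal library 1 (0.79) or 2 (0.67) or ventral library 3 (0.68). When values were rescaled by the median of ratios, the split of 5 above and 1 below became 4 above and 4 below.

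In mid-anagen 4 genes (Krt25, Krt71, Krt73 and Tchh) differed among domains, against 38.1% of all genes, and in late anagen 3 (Krt28, Krt72 and Tchh), against 20.8%. These counts followed the shares of all genes, and stages were not tested against each other. Krt27 means in late anagen were 6188 ± 781 FPKM (n = 2) in chin, 6349 ± 84.4 (n = 3) in ventral and 5826 ± 263 (n = 3) in dorsal skin, within the spread of the chin libraries. Krt28 was lower in dorsal late anagen, at 1195, 1161 and 1136 FPKM, than in chin (2187 and 2000) or ventral late anagen (1954, 1988 and 1922).

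At catagen 5 genes differed among domains (42.9% of all genes). Between ventral and chin 0 passed (3 at an unadjusted p under 0.05), against 5.19% of all genes. Dorsal was below chin for 5 genes (20%) and above it for 2 (21.3%), with Krt71 at -2.04 ± 0.12, Krt74 at -1.87 ± 0.25, Krt73 at -1.45 ± 0.18, Krt28 at -1.35 ± 0.19 and Krt25 at 0.71 ± 0.13. Calls of the other 2 were weak: Krt27 (-0.43) failed without chin library 2 or 3 or dorsal library 1 or 2, and Tchh (0.44) without any 1 of the 5 libraries. Dorsal was below ventral for 4 genes (16.4%) and above it for Krt25 (19%). Each of these 5 had the same direction against chin.

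At refractory telogen all 9 differed among domains (42.2% of all genes), and chin was the lowest. Dorsal was above chin for all 9 genes (7.61%), by 1.14 ± 0.12 for Krt71 to 1.85 ± 0.25 for Krt74. Ventral was above chin for 8 (6.06%), by up to 1.85 ± 0.13 for Krt25, although Krt26 (1.33 ± 0.27) was at 0.32 and no longer passed without ventral library 1, and was at 2.34 without ventral library 2. Krt25 was at 1884 and 1651 FPKM in dorsal, 2080 and 2034 in ventral and 506, 777 and 472 in chin refractory telogen, with chin below both. Muscle genes summed to 6676 to 10354 FPKM in chin, 482 and 543 in ventral and 1883 and 1815 in dorsal refractory telogen, and their part in the difference was not tested. Between dorsal and ventral 1 gene passed (5.57% of all genes), Krt74 (1.29 ± 0.27), which was at 0.63 and did not pass without ventral library 2 and at 1.94 without ventral library 1. The count was 4 without ventral library 1 and 2 without ventral library 2.

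Krt74 had a pattern of its own among the 9 genes, at the low depth given above. Its 50-base stretches are in part shared with Krt71 and Krt73. Those genes had medians of 7532 and 743 FPKM, against 3.84 for Krt74. The part of their reads in the values of Krt74 was not tested. Its libraries were at 11.1 and 11.6 FPKM in dorsal refractory telogen, the highest of the skin libraries, and at 1.77 and 0.93 in dorsal catagen. Chin catagen followed the highest group with 7.72, 7.41 and 7.21 FPKM, and the remaining groups had means between 2.02 and 4.81 FPKM, most of them overlapping the next in order. Over the 18 group means on the log2 scale, Krt74 correlated with the other 8 genes at 0.1 to 0.55 (Pearson), while the other 8 correlated with each other at 0.67 to 0.96, as a description over means that share library and depth. Among those 8, the cuticle keratins Krt26 and Krt72 correlated at 0.96 and both with Tchh at 0.93 and 0.95, whereas Krt73, also of the cuticle, correlated at 0.94 with Krt28 and 0.91 with Krt71 but at 0.68 with Krt26 and with Krt72.

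The effect of stage differed among domains for all 9 genes in the limma interaction test, against 73.3% of all genes. The values by domain were given above: from catagen to refractory telogen Krt71 fell in chin (-2.11 ± 0.11) and rose in dorsal skin (1.07 ± 0.13), and from competent telogen to early anagen Krt72 fell in dorsal skin (-3.69 ± 0.17) and was at 0.63 ± 0.17 without passing in chin. These changes were not tested against each other. The dorsal fall of Krt72 rests on the libraries labelled dorsal competent telogen. Those libraries and the ones labelled ventral early anagen, which stood apart from their labels, entered the interaction test.

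A list of 13 genes known from inner root sheath formation and hardening was followed beside the keratins. It held the transcription factors Gata3, Cux1, Dlx3 and Ovol1, the deiminases Padi1 and Padi3, the transglutaminases Tgm1 and Tgm3, corneodesmosin (Cdsn), the protease Prss53, the lipase Liph with its receptor partner Lpar6, and the trichohyalin-like Tchhl1. The list was not confined to skin rich in the 9 genes. In rostral ear skin those genes had a mean sum of 140 FPKM, against 24201 in dorsal competent telogen. The list had 617 FPKM there, against 2049. Cdsn (319 against 507 FPKM) and Gata3 (168 against 207) stayed high, while Padi3 (0.325 against 118) and Tchhl1 (2.67 against 617) were low. The part of the epidermis in the changes below was not tested. From chin catagen to refractory telogen 12 of 13 fell and 0 rose, led by Tgm3 (0.757 from 9.93 FPKM, log2 -2.63 ± 0.23), Padi3 (19.4 from 103 FPKM), Prss53 (41.7 from 184) and Dlx3 (56.1 from 232). From ventral early to mid-anagen 10 rose and 1 fell, with Dlx3 (174 from 46.1 FPKM, 1.88 ± 0.18) and Cux1 (61.5 from 22.9) at the head. From dorsal early to mid-anagen 9 rose and 0 fell, with Tchhl1 at 693 from 25.1 FPKM (4.73 ± 0.07) and Padi1 at 23.7 from 2.57. From dorsal competent telogen to early anagen 8 fell and 1 rose, with Tchhl1 at -4.57 ± 0.08 and Padi1 at -2.93 ± 0.28.

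In dorsal catagen 10 of the 13 fell against late anagen and 1 rose. Prss53 (21.8 from 162 FPKM, -2.84 ± 0.15), Cdsn (84.2 from 477, -2.49 ± 0.14), Gata3 (124 from 260) and Tgm3 (6.21 from 13.9) fell most, in the comparison in which Krt71 fell and Krt25 and Tchh rose. Epidermal keratins had mean sums of 2568 FPKM in dorsal catagen and 5062 in dorsal late anagen. The part of the epidermis in these falls was not tested. From dorsal catagen to refractory telogen 6 rose and 3 fell, with Cdsn (514 FPKM) and Prss53 (128 FPKM) higher again. In the other successive comparisons the list's counts of rises and falls were 1 and 0 from chin competent telogen to early anagen, 3 and 0 to mid-anagen, 2 and 1 to late anagen, 4 and 0 to catagen, and 8 and 1 from refractory to competent telogen. They were 3 and 7 from ventral competent telogen to early anagen, 3 and 1 from mid- to late anagen, 0 and 0 to catagen, 0 and 8 to refractory telogen and 3 and 5 to competent telogen. In dorsal skin they were 0 and 1 from mid- to late anagen and 3 and 0 from refractory to competent telogen. The shares of all genes called in these comparisons are those given for the keratins.

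Likeness of other genes was measured as the Pearson correlation, over the 18 group means of log2(FPKM + 1), with the mean of the 9 genes, among 17613 genes with a mean of at least 1 FPKM in at least 1 group. The 10 most alike were Tagln3 (0.978), Krt32 (0.967), Crym (0.965), Map3k6 (0.955), Eif2b4 (0.951), Gprc5a (0.95), Smox (0.945), Fam49a (0.945), Ass1 (0.944) and Acot7 (0.939). Krt32 is a keratin of the hair shaft cuticle, and its group means ran from 95 FPKM in ventral early anagen to 439 in chin catagen. Tagln3, of the transgelin family of actin-binding proteins, ran from 8.00 FPKM in ventral early anagen to 73.2 in ventral late anagen, and Crym, a thyroid hormone-binding crystallin, from 224 FPKM in dorsal early anagen to 1513 in chin catagen. Without the dorsal competent telogen mean 9 of the 10 remained among the 10 most alike. The points share libraries and depth, and no test was made.

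All 9 genes were far lower in ear skin than in dorsal skin. Krt71 was at 59.9 and 57.7 FPKM in the rostral ear skin libraries and 8292 and 8240 in dorsal skin, Krt27 at 40.3 and 37.0 against 6052 and 5973, and Tchh at 10.5 and 9.90 against 2112 and 2035. Krt25 was at 16.3 and 14.5 FPKM, Krt28 at 7.15 and 6.89, Krt72 at 5.14 and 3.18, Krt73 at 4.41 and 4.33, Krt26 at 1.47 in both and Krt74 at 0.12 and 0.17. No ear skin library overlapped a dorsal one for any gene. In the ear table, fitted over 19299 genes, all 9 were lower in ear skin than in dorsal skin, against 14.6% of all genes, by -7.08 ± 0.07 for Krt25 to -8.37 ± 0.17 for Krt72 and by -2.17 ± 0.14 for Krt74, which is low in both. With the dorsal refractory telogen libraries in place of those labelled dorsal competent telogen all 9 were again lower, Krt28 by -6.55 and Krt72 by -7.25, while the difference of Krt74 grew to -3.43. In ear skin Krt71 made up 42.0% and Krt27 27.6% of the sum, with a type I to type II ratio of 0.938 and 0.915.

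In the cartilage/muscle complex 7 of the genes were listed at 0 FPKM in all 3 libraries. Krt28 was at 0.23, 0.10 and 0.20 FPKM and Tchh at 0.34, 0.38 and 0.34. All 9 were called lower there than in dorsal skin, against 28.3% of all genes, and 8, all but Krt74, higher in ear skin than there, against 38.5%. No fold is given against a group listed at 0. Cartilage genes (Col2a1, Acan, Comp, Matn1) summed to 1304 to 1686 FPKM in these libraries and 1.10 to 1.26 in ear skin, and the epidermal keratins to 3.47 to 4.11 and 11218 to 11625 FPKM, so both tissues held the markers of their labels.

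**Figure D5:**
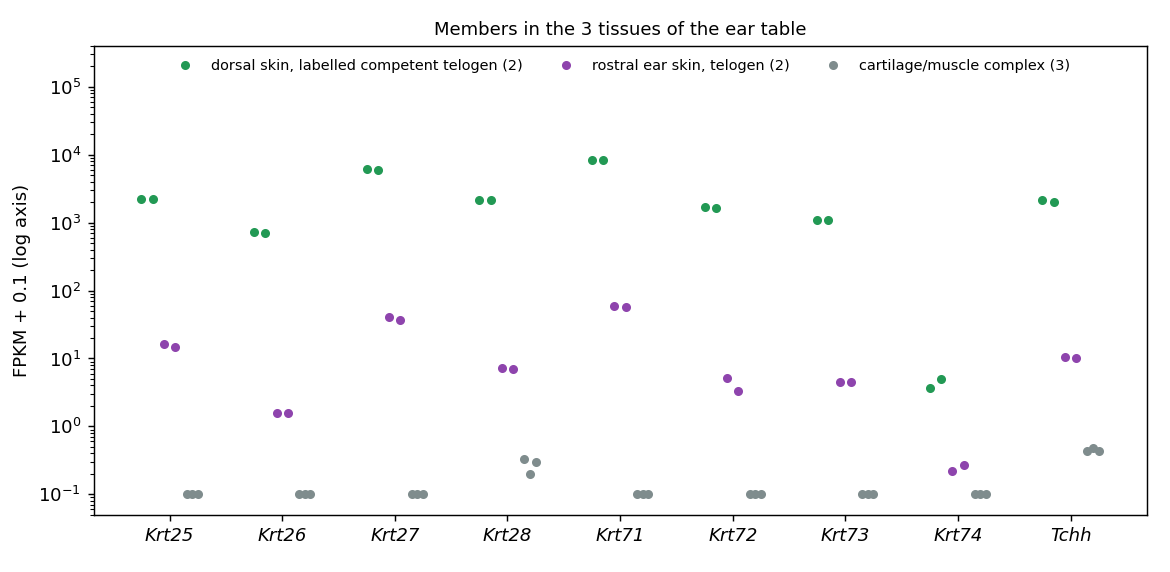
FPKM + 0.1 on a log axis is plotted for each gene in the 7 libraries of the ear table (dorsal skin n = 2, rostral ear skin n = 2, cartilage/muscle complex n = 3). The ear skin libraries lie below the dorsal ones for each gene, and points at 0.1 stand for genes listed at 0 in the cartilage/muscle complex.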

How the data were processed

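RNA-seq libraries (SMART-seq2 protocol, paired-end reads) of 43 skin, 2 ear skin and 3 ear cartilage/muscle samples were used. Per the labels and the study's methods, the authors aligned reads to mm10 with a GENCODE annotation, estimated gene levels by RSEM 1.2.25, and the deposited values are FPKM. The methods also state a batch-effect correction, and whether the deposited FPKM hold it is not given in the sources used here. FPKM fix each library's total, so a rise of abundant genes lowers others.

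Values were used as deposited and tested with limma 3.58.1 (R 4.3.3) on log2(FPKM + 1), with a variance trend and 1 mean per group. Genes had to reach 0.5 FPKM in 2 or more libraries, and p-values were Benjamini-Hochberg adjusted over all of them at 0.05. Skin groups were fitted together, since they then share an estimate of the spread, and the ear table alone. Successive stages, domains within a stage and the interaction were tested, two-sided. The fits were tested on simulated data. Alternatives were other scalings, filters, pseudocounts, a replicate block and libraries left out. Named genes were the 9 genes, the 13 genes of the sheath programme (counts, and up to 4 of those that passed with the largest change) and the 10 genes most like them. Members, lists and tests were chosen with earlier results of these data known. Depth was estimated from the FPKM steps of 26543 genes with 1 annotated transcript, 74.5% to 81.5% of whose low values were whole reads within 0.15. The edgeR test of the study was not used, since FPKM are not counts. The 2 ear skin columns carry numbers that do not match the labels and were used as unnumbered replicates. Python 3.11.15 with pandas and matplotlib made tables and figures.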

Additional observations from a re-analysis of the deposited data

Results flagged for a closer look

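The effect of stage differed among the chin, ventral and dorsal domains for each of the 9 genes in the limma interaction test, a difference that 73.3% of all genes tested also showed. Groups labelled dorsal competent telogen and ventral early anagen, which stood apart from their labels, entered this test. Benjamini-Hochberg adjusted p-values over all genes were 7.05e-15 for Krt71, 2.05e-14 for Krt25, 1.16e-13 for Krt72, 3.40e-13 for Krt28, 6.48e-12 for Krt73, 5.70e-11 for Tchh, 2.16e-10 for Krt27, 2.37e-07 for Krt74 and 3.13e-07 for Krt26. No group held 4 or more libraries, and Dixon's test for a library far from its group was not run. Replicate libraries were compared pairwise and left out in turn instead.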

How the results depend on the processing

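Of 184 calls of single genes, 31 were lost under at least 1 alternative and 0 changed direction. From ventral mid- to late anagen the count of 5 called genes was 2 without a filter on low values and 3 when values were rescaled to TPM, and from dorsal refractory to competent telogen the count of 5 was 3 in TPM. The cause was not tested. With 1 library left out in turn, counts ran from 2 to 5 (chin early to mid-anagen, 6 with all libraries), 0 to 3 (chin mid- to late anagen, 3), 0 to 2 (chin late anagen to catagen, 2), 4 to 7 (chin refractory to competent telogen, 7), 1 to 3 (ventral mid- to late anagen, 5), 3 to 4 (dorsal refractory to competent telogen, 5) and 1 to 4 (dorsal against ventral refractory telogen, 1). These counts are of genes called in either direction, and a group left with 1 library was assumed to vary like the others. The median log2 difference of all genes lay between -0.251 and 0.33 over the comparisons, and from -0.018 to 0.041 once values were scaled by medians of ratios. With this scaling dorsal against ventral early anagen went from 5 higher and 1 lower to 4 and 4. In TPM chin early to mid-anagen went from 6 and 0 to 4 and 1, dorsal refractory to competent telogen from 4 and 1 to 2 and 1, and dorsal against chin catagen from 2 and 5 to 1 and 5. Replicate numbers did not pair the libraries (median correlation of deviations -0.00536 for the same number, 0.00381 for different numbers), and a fit with the replicate block called 84 of 162 successive-stage tests against 92 without it. Leaving out the libraries labelled ventral early anagen was chosen after seeing the data. Few fragments limit Krt74, as do stretches shared with the far higher Krt71 and Krt73.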
